A study of Mus musculus with 22 samples.

Results

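The transcripts of 9 genes of iron transport and storage were followed in bone marrow-derived macrophages (BMDM) with and without lipopolysaccharide (LPS), a cell wall molecule of Gram-negative bacteria that macrophages sense through Toll-like receptors. The members were the 9 genes Tfrc, Slc11a2, Slc11a1, Slc40a1, Hamp, Fth1, Ftl1, Ireb2 and Aco1, taken by name with all their probes, and all 9 were among the 22378 genes tested. They were covered by 13 probes, with 3 for Tfrc, 2 each for Slc11a2 and Ftl1 and 1 for each other gene. The cells came from C57BL/6 mice labelled as male, either wild-type (wt), lacking the protein kinase MK2 (MK2-/-), or lacking both MK2 and MK3 (MK2/3-/-). MK2 and MK3 act downstream of the stress kinase p38, and the comparisons ask how LPS changes the transcriptome and which part of that change differs without these kinases. Bone marrow cells had been grown for 9 days with 10 ng/ml of the growth factor M-CSF, and the cultures were then kept for 360 min in medium or with 100 ng/ml LPS.

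The 22 arrays formed 6 groups, with 4 wt arrays in medium and 3 after LPS, 4 and 4 MK2-/- arrays, and 3 and 4 MK2/3-/- arrays. The wt mice were 12 to 13 weeks old, the MK2-/- mice 10 to 13 weeks and the MK2/3-/- mice 11 to 14 weeks. The deletions were carried by the whole animal, so the cells lacked the kinases throughout their growth in culture as well as during LPS treatment. The study's methods speak of independent experiments, but the labels do not name the animal of each array, and p-values measure the spread between these arrays.

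Iron enters most cells as transferrin bound to the transferrin receptor, and macrophages take up more of it by engulfing old red cells and breaking down their haem. Surplus iron is stored in ferritin or leaves through ferroportin, the exporter encoded by Slc40a1, and the peptide hormone hepcidin, encoded by Hamp, blocks and degrades ferroportin. In infection macrophages are known to retain iron, which withholds it from microbes outside the cell. The iron regulatory proteins, encoded by Ireb2 and Aco1, bind messenger RNAs of the ferritins, the transferrin receptor and the transporters, so that part of the control lies in translation and RNA stability, which an array of RNA levels shows only in part.

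The arrays were checked before the iron genes were compared. Mapkapk2 (MK2) averaged 11.9 in wt medium and 14.89 in wt LPS arrays, against 8.88 and 11.61 in MK2-/- and 8.44 and 11.02 in MK2/3-/- arrays, and Mapkapk3 (MK3) 13.13 and 12.12 in wt, 12.9 and 12.35 in MK2-/- and 11.16 and 8 in MK2/3-/- arrays. Both targets were thus lower where they were deleted, and whether the probes lie in the deleted parts is not known. The MK2-/- replicate 3 arrays had Y-linked Eif2s3y at 3.31 in medium and 2.02 after LPS against 11.09 to 12.52 on all others, which goes against their label of male animals. Some member results that rest on them are also given without both arrays, and the list genes are not. Of 10 macrophage markers 9 were tested and well above background in every group, with a summed log2 level of 19.1 to 19.54 in wt medium and 18.78 to 18.94 in wt LPS arrays. Erythroid cells, another source of iron genes, had 5 of 9 markers tested, at summed levels of 8.17 to 9.37, and Alas2 was among those not tested. Hba-a1, Slc4a1 and Epor were well above background on all 22 arrays, Klf1 on 12 and Hbb-bt on 6.

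The transcript of the hormone rose and that of its target fell in every genotype. After LPS, Hamp went from a mean log2 signal of 3.68 to 9.88 in wt BMDM, where 1 of 4 medium arrays was well above background, while Slc40a1 fell to a level 12.5-fold lower. Slc11a2 and Ireb2 also rose in all 3 genotypes. Slc11a1 fell in all 3 with quantile normalisation, but only in MK2/3-/- BMDM when arrays were scaled to their 75th percentile. In wt BMDM 5 of 9 members changed (3 higher, 2 lower), where 42.1% of all genes tested changed, 18.6% higher and 23.5% lower. In BMDM lacking MK2, 6 changed (3 higher, 3 lower) against 44.6% of all genes (17.5% higher, 27.1% lower), and without both kinases 6 changed (3 higher, 3 lower) against 48.2% (20.2% higher, 27.9% lower). The third lower member was Aco1 without MK2 and Ftl1 without both kinases, and the Ftl1 call turns to higher with 75th percentile scaling. That scaling gave 5 higher and 1 lower in wt, 4 and 2 in MK2-/-, and 5 and 2 in MK2/3-/- BMDM. Under it 10527, 9954 and 10605 of all 22378 genes were called in the same order, with 60.5%, 53.6% and 54% of these calls higher. A change here is a Benjamini-Hochberg adjusted p below 0.05 over all genes from limma, a linear model moderated across genes. The members' median log2 difference was -0.06, -0.15 and -0.22 in the 3 genotypes, beside -0.04, -0.01 and 0.01 over all genes, so as a group they did not move one way.

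**Figure D1:**
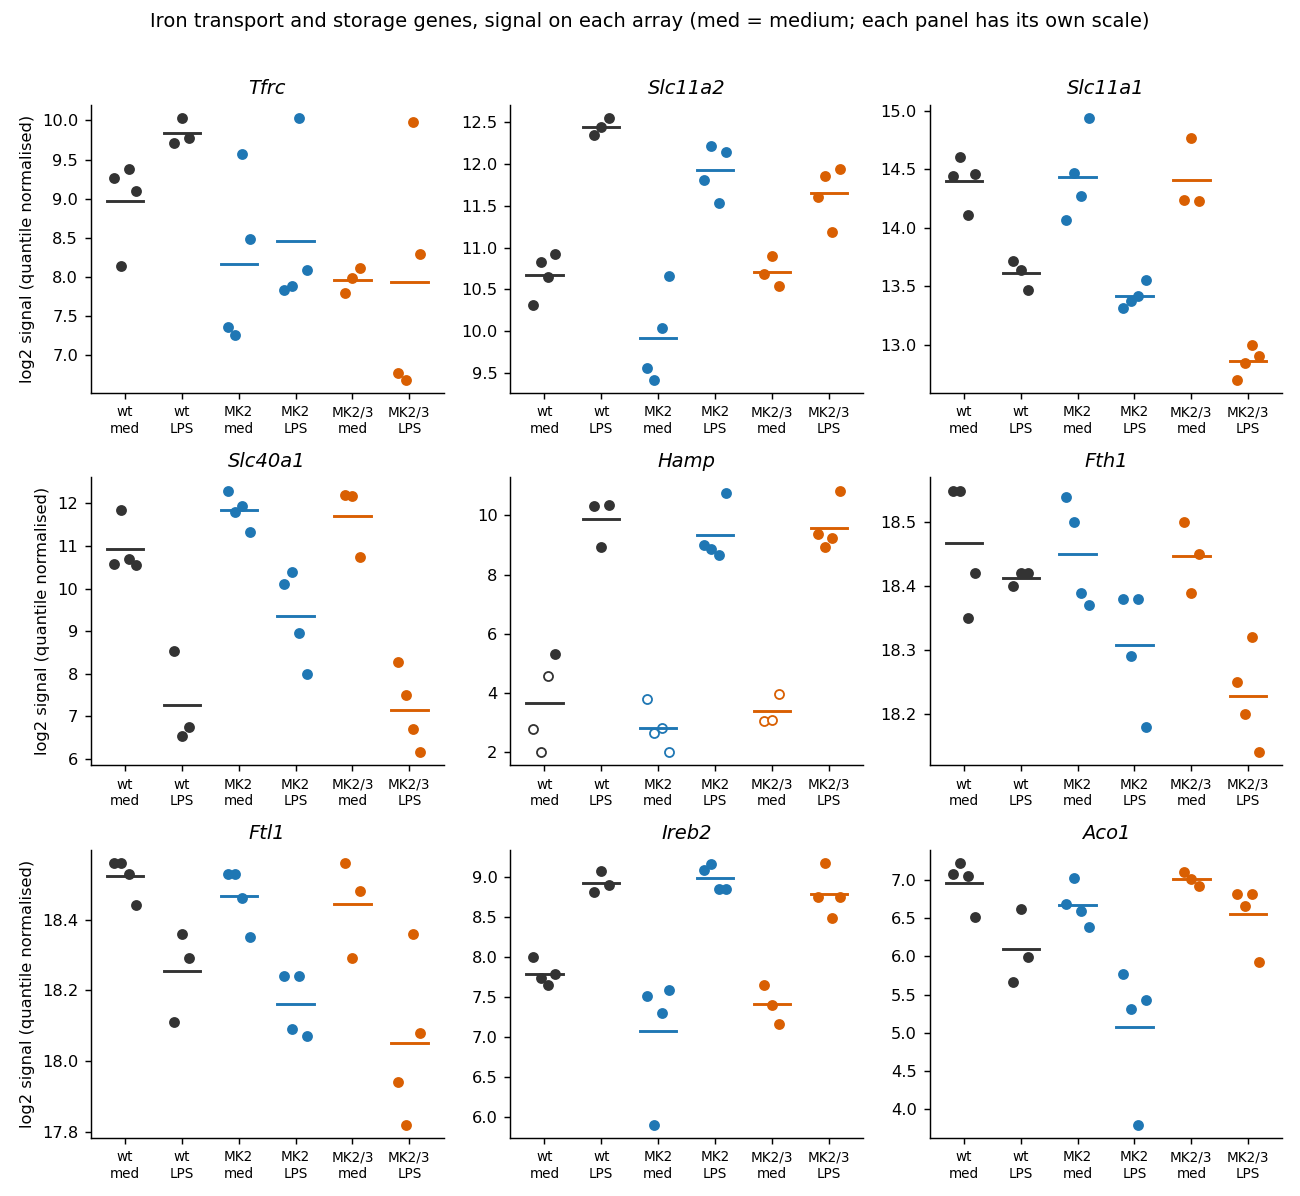
Normalised log2 signal of the 9 iron genes on each of the 22 arrays, by genotype and treatment, 1 panel per gene (MK2 and MK2/3 on the axis are MK2-/- and MK2/3-/-), with bars at the group means and open points where the spot was not well above background. Hamp sits between 2.01 and 5.31 in medium and between 8.66 and 10.84 after LPS, and Slc40a1 between 10.55 and 12.3 in medium and between 6.16 and 10.39 after LPS.

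Sequence upstream of Hamp is shown because this gene had the largest difference of the members after LPS and its promoter is known to bind the factors of interleukin 6 and of bone morphogenetic proteins. In RefSeq's annotation of GRCm38.p6 the 250 bases before the gene's start lie at chr7:30944030-30944279 on the minus strand, and they read as follows, where letters that matched a searched motif are in capitals.
Hamp promoter: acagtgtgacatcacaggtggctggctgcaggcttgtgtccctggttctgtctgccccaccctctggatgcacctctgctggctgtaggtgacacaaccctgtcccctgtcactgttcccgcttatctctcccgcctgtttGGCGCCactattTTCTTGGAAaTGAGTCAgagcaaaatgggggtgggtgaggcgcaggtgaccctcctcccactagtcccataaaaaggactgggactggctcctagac
In order, the capitals mark GGCGCC (a core letter sequence of bone morphogenetic protein response), TTCNNNGAA (the STAT motif) and TGANTCA (the AP-1 motif), which start 109, 97 and 87 bases before the gene's start and do not overlap. GGCGCC occurred in 9.59% of 32851 promoter windows of the same length, TTCNNNGAA in 7.02% and TGANTCA in 6.75%. TTGCNNAA (C/EBP, 9.56% of windows), ACGTG (hypoxia, 16.6%) and TATAAA (12.4%) were also searched on both strands and had no match in the Hamp window. Of the 7 members with an entry in that table, Tfrc and Fth1 had more than 1 window each and other matches. GGCGCC and ACGTG occurred once each in different windows of Tfrc. TTGCNNAA occurred 2 times in 1 window of Fth1 and TATAAA once in another. Slc11a1, Ftl1, Ireb2 and Aco1 had none of the 6 letter sequences in this window. A match is a run of letters and no measured binding.

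Hamp encodes hepcidin, which is best known from hepatocytes and is also made by myeloid cells. In wt BMDM its log2 signal was 2.8, 2.01, 4.58 and 5.31 in medium and 10.33, 8.94 and 10.36 after LPS. The MK2-/- values were 3.79, 2.64, 2.81 and 2.03 in medium and 9, 8.88, 8.66 and 10.76 after LPS. The MK2/3-/- values were 3.07, 3.1 and 3.98 in medium and 9.36, 8.93, 9.23 and 10.84 after LPS. Every LPS array lay above every medium array, and the spot was well above background on all 11 LPS arrays but on only 1 of 11 medium arrays, wt medium replicate 4.
In wt BMDM Hamp rose (adjusted p = 1.04e-06, limma), from 3.68 ± 1.53 (SD, n = 4) to 9.88 ± 0.81 (SD, n = 3). Because the medium signal was mostly not well above background, the folds given are lower bounds, which set the mean after LPS against, on each medium array, the higher of its own Hamp signal and its dimmest signal well above background. In wt BMDM this bound was 40.6-fold over all 4 medium arrays. Hamp was at least 38.2-fold higher after LPS in MK2-/- BMDM (adjusted p = 1.07e-07) and at least 56.4-fold higher in MK2/3-/- BMDM (adjusted p = 5.43e-07).
The array wt medium replicate 4 also had the highest Il6 signal of the wt medium arrays, 13.36 against 6.41 to 10.02 on the others. The next highest wt medium array for Il6, replicate 3 (10.02), was also the next highest for Hamp (4.58). On the medium arrays of the knockouts Il6 stood at 4.88 to 6.36 (MK2-/-) and 5.16 to 6.55 (MK2/3-/-). Without wt medium replicate 4 the bound for Hamp in wt BMDM was 48.6-fold (adjusted p = 4.45e-07). The part of the inflammatory signal of the wt medium arrays in the result was otherwise not tested.
Hamp2, a near-identical neighbouring gene with a probe of its own, differed by 0.04, 0.05 and 0.11 on the log2 scale in the 3 genotypes and did not pass the test in any. Whether the probes share target sequence is not known, since probe sequences were not used here.

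Slc40a1 encodes ferroportin, the iron exporter of mammalian cells. In wt BMDM its log2 signal was 10.58, 11.85, 10.69 and 10.55 in medium and 8.54, 6.53 and 6.74 after LPS. On the MK2-/- arrays Slc40a1 stood at 12.3, 11.8, 11.93 and 11.33 in medium and 10.11, 10.39, 8.95 and 7.99 after LPS. On the MK2/3-/- arrays Slc40a1 stood at 12.2, 12.17 and 10.75 in medium and 8.27, 7.5, 6.7 and 6.16 after LPS. The LPS and medium arrays of each genotype did not overlap, and the LPS arrays scattered more widely than the medium arrays in all 3 genotypes.
Slc40a1 fell by 3.65 on the log2 scale in wt BMDM (SE 0.61, adjusted p = 8.73e-05, limma), from 10.92 ± 0.62 (SD, n = 4) to 7.27 ± 1.1 (SD, n = 3). The difference was -2.48 in MK2-/- BMDM (SE 0.57, 5.57-fold lower, adjusted p = 0.0013), while MK2/3-/- BMDM showed -4.55 (SE 0.61, 23.4-fold lower, adjusted p = 4.64e-06). In RNA of whole cultures, fewer cells that hold a transcript and less of it per cell cannot be told apart.
Within the LPS groups Slc40a1 and a summed level of stromal and fibroblast markers differed between arrays. MK2-/- LPS replicate 4 and MK2/3-/- LPS replicate 4 had the lowest Slc40a1 of their groups (7.99 and 6.16), the highest Hamp (10.76 and 10.84) and the highest stromal sums (14.25 and 14.92 on the log2 scale). In wt BMDM the array with the highest stromal sum after LPS (15.93) had instead the highest Slc40a1 (8.54). Of the 7 stromal markers 6 were tested, all but Pdgfra, and their sum in medium ranged from 11.68 to 16.71 in wt, 10.62 to 14.72 in MK2-/- and 9.5 to 15.56 in MK2/3-/- BMDM, where the array at 15.56 had the lowest Slc40a1 of its group (10.75). Both LPS arrays of replicate 4 and this medium array share the replicate letter e, a letter in the name of each array. In wt BMDM the LPS array of letter e also had the highest Hamp of its group (10.36), but not the lowest Slc40a1 (6.74 against 6.53). In medium the arrays of letter e had the lowest Slc40a1 in wt, MK2-/- and MK2/3-/- BMDM (10.55, 11.33 and 10.75). The part of stromal cells, or of what the letter marks, in these values was not tested.

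Slc11a1 (NRAMP1) encodes a metal transporter of the phagosome membrane that moves iron out of the compartment holding engulfed microbes, and C57BL/6 mice are known to carry a loss-of-function allele of it. In wt BMDM its log2 signal was 14.44, 14.61, 14.11 and 14.46 in medium and 13.72, 13.64 and 13.47 after LPS. For MK2-/- BMDM the values were 14.07, 14.47, 14.27 and 14.94 in medium and 13.31, 13.37, 13.42 and 13.55 after LPS. For MK2/3-/- BMDM the values were 14.24, 14.77 and 14.23 in medium and 12.7, 12.84, 13 and 12.9 after LPS. The groups in medium overlapped across genotypes, the LPS arrays lay below all of them, and the MK2/3-/- arrays were the lowest.
Slc11a1 fell by 0.8 on the log2 scale in wt BMDM (SE 0.19, 1.74-fold, adjusted p = 0.00273). The difference was -1.03 for MK2-/- (SE 0.18, 2.04-fold, adjusted p = 9.66e-05) and -1.55 for MK2/3-/- BMDM (SE 0.19, 2.93-fold, adjusted p = 1.88e-06). These values depend on the scaling of the arrays. With arrays scaled to their 75th percentile in place of quantile normalisation the differences were -0.04 (adjusted p = 0.892), -0.31 (adjusted p = 0.192) and -0.87 in the same order, so that only the MK2/3-/- call held.

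Slc11a2 (DMT1) encodes the transporter that carries ferrous iron across the apical membrane of enterocytes and out of endosomes. In wt BMDM the log2 signal of its brighter probe was 10.31, 10.83, 10.65 and 10.92 in medium and 12.35, 12.44 and 12.55 after LPS. MK2-/- BMDM gave 9.56, 9.42, 10.04 and 10.66 in medium and 11.81, 12.21, 11.53 and 12.14 after LPS. MK2/3-/- BMDM gave 10.68, 10.9 and 10.54 in medium and 11.61, 11.86, 11.19 and 11.94 after LPS. All LPS arrays lay above all medium arrays, and the wt LPS arrays were the highest.
Slc11a2 rose by 1.77 on the log2 scale in wt BMDM (SE 0.27, 3.4-fold, adjusted p = 2.6e-05), by 2 without MK2 (SE 0.25, 4.01-fold, adjusted p = 1.47e-06) and by 0.95 without both kinases (SE 0.27, 1.93-fold, adjusted p = 0.00589). The second probe of Slc11a2 rose too, by 1.21, 0.66 and 0.72 (adjusted p = 3.69e-06, 0.000737 and 0.000589, limma fitted probe by probe). The order of the genotypes was thus not the same for the 2 probes.

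Tfrc encodes transferrin receptor 1, the main route of iron uptake in dividing cells. In wt BMDM the log2 signal of its brightest probe was 9.27, 8.14, 9.38 and 9.1 in medium and 9.71, 10.03 and 9.77 after LPS. On the MK2-/- arrays Tfrc stood at 7.36, 7.26, 9.57 and 8.49 in medium and 7.84, 7.89, 10.03 and 8.09 after LPS. On the MK2/3-/- arrays Tfrc stood at 7.79, 7.99 and 8.12 in medium and 6.77, 6.69, 9.98 and 8.3 after LPS. The wt LPS arrays lay just above the wt medium arrays, while both MK2-/- groups and the MK2/3-/- LPS group spread more widely than the wt groups, and the treatments overlapped in both knockouts.
The difference of Tfrc after LPS was 0.87 in wt BMDM (95% interval -0.6 to 2.33, adjusted p = 0.348), 0.29 without MK2 (-1.06 to 1.65, adjusted p = 0.755) and -0.03 without both kinases (-1.49 to 1.43, adjusted p = 0.976). None passed the test, and the intervals are wide in both directions. Arrays of replicate letter c had the highest Tfrc of every group with that letter. They stood at 9.38 and 10.03 in wt medium and LPS, 9.57 and 10.03 in MK2-/-, and 9.98 in MK2/3-/- LPS arrays. The MK2-/- ones are replicate 3, the 2 arrays that went against their label. Without both, Aco1 in wt BMDM also passed (-0.88, adjusted p = 0.0132, limma). The size of that difference was the same as with all arrays, since only the spread estimate shared by the groups had changed.

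Fth1 and Ftl1 encode the heavy and light chains of ferritin, the iron storage shell, and both are among the most strongly expressed genes of macrophages. Fth1 ranged from 18.35 to 18.55 on the medium arrays and from 18.14 to 18.42 on the LPS arrays, and its probe ranked between 9 and 40 among all probes on every array. The first Ftl1 probe ranged from 18.29 to 18.56 in medium and from 17.82 to 18.36 after LPS. Quantile normalisation gives the same set of values to every array, and probes at this end of the range have little room to rise, while a fall can show.
Fth1 differed by -0.06, -0.15 and -0.22 after LPS in wt, MK2-/- and MK2/3-/- BMDM (adjusted p = 0.75, 0.311 and 0.143). The first Ftl1 probe differed by -0.27 (adjusted p = 0.145) in wt and -0.31 (adjusted p = 0.067) in MK2-/- BMDM, and by -0.4 in MK2/3-/- BMDM (SE 0.14, adjusted p = 0.0266). This last call was lost with only the groups compared (adjusted p = 0.164), by the methods' t-test (0.103, Benjamini-Hochberg adjusted), in the deposited value table (0.0612) and without MK2/3-/- LPS replicate 1 (0.0628) or 2 (0.0838) or MK2/3-/- medium replicate 1 (0.104) or 3 (0.0779). With scaling to the 75th percentile the direction turned. Fth1 was then higher after LPS by 0.78, 0.58 and 0.71 (adjusted p = 0.00213, 0.0104 and 0.00424) and Ftl1 by 0.63, 0.46 and 0.54 (adjusted p = 0.0192, 0.065 and 0.0428).
That scaling moved the median of all genes to 0.3, 0.28 and 0.29, and relative to the median of all probes Fth1 was still higher by 0.52, 0.33 and 0.45. The direction of Fth1 and of the first Ftl1 probe, its MK2/3-/- call included, thus depends on the scaling.
The second Ftl1 probe went down under both scalings. It ranged from 18.03 to 18.59 in medium and from 16.3 to 17.07 after LPS, and no LPS array reached a medium array. Under quantile normalisation the log2 difference was -1.43, -1.55 and -1.78 in wt, MK2-/- and MK2/3-/- BMDM (adjusted p = 4.28e-07, 2.81e-08 and 1.46e-08, probe by probe). Under scaling to the 75th percentile it was -0.52, -0.85 and -0.87 (adjusted p = 0.0159, 0.000162 and 0.000285). The 2 Ftl1 probes thus disagreed, and since the ferritin genes have many near-identical processed copies in the genome, which transcripts each probe reports is uncertain.

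**Figure D2:**
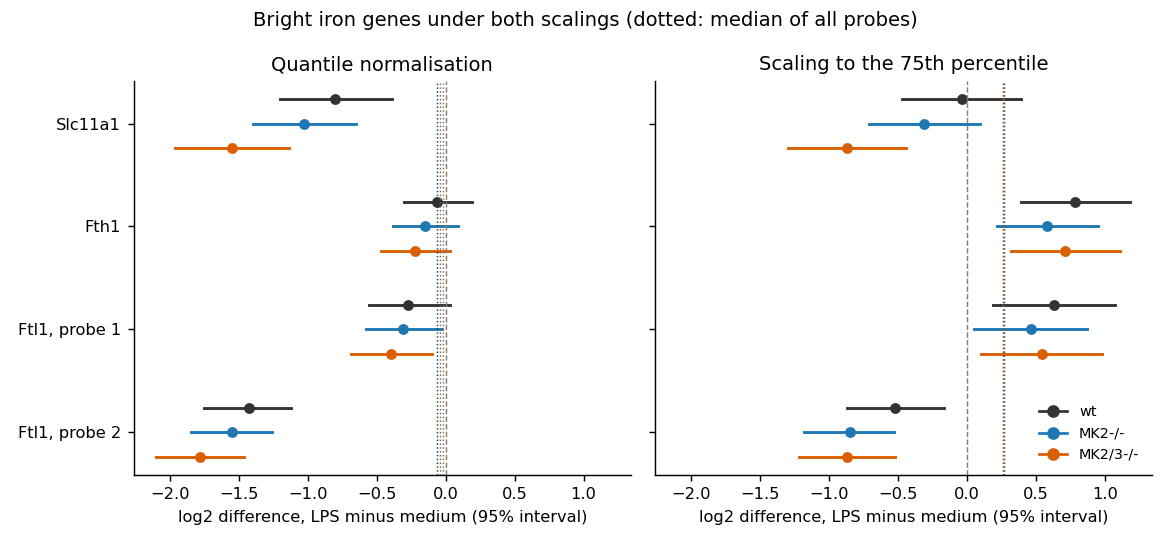
Log2 difference after LPS (points, with 95% intervals) of the brightest iron gene probes in each genotype, with quantile normalisation on the left and scaling to the 75th percentile on the right, and dotted lines at the median of all probes. Fth1 and the first Ftl1 probe change sides of 0, at -0.06 and 0.78 for Fth1 in wt, while the second Ftl1 probe stays below 0, at -1.43 and -0.52 in wt.

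Ireb2 and Aco1 encode the iron regulatory proteins IRP2 and IRP1, of which the second is a cytosolic aconitase when it carries an iron-sulphur cluster. In wt BMDM the log2 signal of Ireb2 was 8, 7.73, 7.64 and 7.78 in medium and 8.81, 9.07 and 8.89 after LPS. MK2-/- BMDM had Ireb2 at 7.51, 5.9, 7.3 and 7.58 in medium and 9.08, 9.16, 8.84 and 8.84 after LPS. MK2/3-/- BMDM had Ireb2 at 7.65, 7.4 and 7.16 in medium and 8.74, 9.17, 8.48 and 8.74 after LPS. All LPS arrays lay above all medium arrays, and after LPS the genotypes overlapped. In medium the MK2-/- arrays lay below the wt arrays, a difference that did not pass after adjustment (-0.71, adjusted p = 0.106), and the MK2/3-/- arrays overlapped both.
Ireb2 rose by 1.14 on the log2 scale in wt BMDM (SE 0.29, 2.2-fold, adjusted p = 0.00413), by 1.91 without MK2 (SE 0.27, 3.75-fold, adjusted p = 9.58e-06) and by 1.38 without both kinases (SE 0.29, 2.6-fold, adjusted p = 0.000656).
Aco1 took the other direction. In wt BMDM its log2 signal was 7.08, 7.22, 7.05 and 6.51 in medium and 5.66, 6.62 and 5.99 after LPS. MK2-/- BMDM had Aco1 at 6.69, 7.02, 6.59 and 6.38 in medium and 5.77, 5.31, 3.8 and 5.43 after LPS. MK2/3-/- BMDM had Aco1 at 7.1, 7.01 and 6.92 in medium and 6.82, 6.66, 6.82 and 5.92 after LPS. The treatments overlapped in wt BMDM, and the MK2-/- LPS arrays were lower than the MK2/3-/- LPS arrays without overlap.
Aco1 fell by 1.59 on the log2 scale in MK2-/- BMDM (SE 0.33, 3.02-fold, adjusted p = 0.00059), while the wt difference of -0.88 (adjusted p = 0.0586) and the MK2/3-/- difference of -0.45 (adjusted p = 0.332) did not pass. The wt value was close to the threshold and passed when any of 5 single arrays was left out, with an adjusted p of 0.0102 without MK2-/- LPS replicate 3, which shares the spread estimate with the wt arrays.

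**Figure D3:**
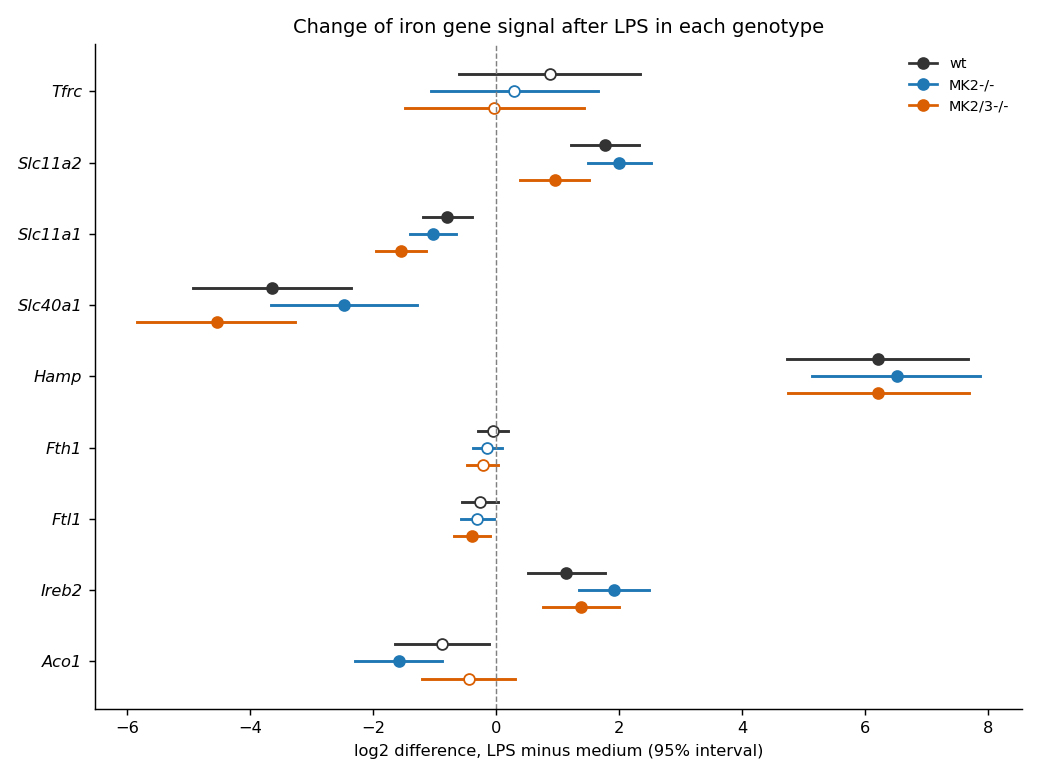
Log2 difference between LPS and medium for each iron gene in wt, MK2-/- and MK2/3-/- BMDM with 95% intervals, filled where the adjusted p was below 0.05. Hamp, Slc11a2 and Ireb2 lie to the right of 0 and Slc40a1 and Slc11a1 to the left in all 3 genotypes, and the points of Hamp rest on medium signals of which 10 of 11 were not well above background, so that only bounds of 38.2-fold for MK2-/- and 56.4-fold for MK2/3-/- BMDM are read from the knockouts.

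Read probe by probe, 7, 8 and 8 of the 13 member probes changed after LPS in wt, MK2-/- and MK2/3-/- BMDM, beside 42%, 45.4% and 48.6% of all 28098 probes.

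Without LPS no member passed the test between genotypes. The count was 0 of 9 between MK2-/- and wt, where 8.82% of all genes did, 0 of 9 for MK2/3-/- minus wt (2.02%), and for MK2/3-/- minus MK2-/- it was 0 as well (2.82%). By limma at an unadjusted p below 0.05 the counts were 2, 0 and 1 members, and 5796, 3782 and 3357 of all genes, and the methods' t-test passed no member after Benjamini-Hochberg adjustment. All arrays of a genotype lay on 1 slide, so genotype and slide cannot be told apart wherever genotypes are compared directly.

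After LPS the genotypes differed in Slc40a1, Slc11a1, Slc11a2 and Aco1. Between MK2-/- and wt, 1 of 9 members passed, beside 11.6% of all genes, between MK2/3-/- and wt 2 of 9 (23.6%), and between MK2/3-/- and MK2-/- 3 of 9 (13.5%). The members' median log2 differences were -0.19, -0.21 and -0.2, beside -0.03, -0.02 and -0.06 over all genes. None of these calls was kept when only the 2 groups compared entered the fit. Replicate letters were not balanced, with a, c and e on the wt LPS arrays and a, b, c and e in each knockout LPS group.
Slc40a1 was 4.27-fold higher in LPS-treated MK2-/- than wt BMDM (log2 difference 2.09, 95% interval 0.81 to 3.38, adjusted p = 0.0353), and 4.61-fold lower in MK2/3-/- than in MK2-/- BMDM (-2.21, 95% interval -3.39 to -1.02, adjusted p = 0.015). The difference between MK2/3-/- and wt BMDM was -0.11 (95% interval -1.4 to 1.17, adjusted p = 0.92). The order of the means after LPS was thus MK2-/- at 9.36, wt at 7.27 and MK2/3-/- at 7.16, of which the last 2 did not differ beyond their spread. Arrays of the higher group overlapped the lower groups, since the lowest MK2-/- array stood at 7.99 below the highest wt array at 8.54 and the highest MK2/3-/- array at 8.27. The stromal sum, over 6 of 7 markers, ranged after LPS from 13.55 to 15.93 on the wt, 10.78 to 14.25 on the MK2-/- and 10.47 to 14.92 on the MK2/3-/- arrays. In both knockouts the 2 arrays with the lower sums (11.45 and 10.78 in MK2-/-, 10.47 and 10.77 in MK2/3-/- BMDM) had the higher Slc40a1 of their group, and the part of this in the difference was not tested.
The call between MK2-/- and wt was lost without wt LPS replicate 2 (1.72, adjusted p = 0.125), wt LPS replicate 3 (1.83, adjusted p = 0.121), MK2-/- LPS replicate 1 (1.84, adjusted p = 0.0926) or MK2-/- LPS replicate 2 (1.75, adjusted p = 0.0996). That between MK2/3-/- and MK2-/- was lost without MK2-/- LPS replicate 1 (-1.95, adjusted p = 0.0571) or replicate 2 (-1.86, adjusted p = 0.0585). Without both MK2-/- replicate 3 arrays the differences were 2.23 (adjusted p = 0.049) and -2.34 (adjusted p = 0.024).
Slc11a1 was 1.68-fold lower in MK2/3-/- than in wt BMDM (-0.75, adjusted p = 0.00977) and 1.47-fold lower than in MK2-/- BMDM (-0.55, adjusted p = 0.0478). The LPS arrays of MK2/3-/- BMDM lay below all wt and MK2-/- LPS arrays, but leaving out 1 array at a time ended the call against MK2-/- in 17 of 22 fits, and without both MK2-/- replicate 3 arrays its adjusted p was 0.084. Between MK2-/- and wt BMDM the difference was -0.19 (95% interval -0.6 to 0.21, adjusted p = 0.536).
The brighter probe of Slc11a2 was 1.74-fold lower in MK2/3-/- than in wt BMDM (-0.79, adjusted p = 0.0367) without overlap of the arrays, whereas the second probe differed by -0.06 (adjusted p = 0.827). The call on the brighter probe was lost in 5 fits, namely without any of the 3 wt LPS arrays (adjusted p = 0.071, 0.0781 and 0.104) or without MK2/3-/- LPS replicate 1 (0.0694) or 3 (0.0954), by limma.
Aco1 was 2.79-fold higher in MK2/3-/- than in MK2-/- BMDM (1.48, SE 0.33, adjusted p = 0.00653). Without MK2-/- LPS replicate 3, the lowest array at 3.8, the difference was 1.06 (adjusted p = 0.0112), and without both replicate 3 arrays it was 1.06 (adjusted p = 0.0145). Aco1 differed by -1.01 between MK2-/- and wt BMDM (adjusted p = 0.0727), which was -0.33 with 75th percentile scaling (adjusted p = 0.47) and -0.59 without MK2-/- LPS replicate 3 (adjusted p = 0.163), and by 0.47 between MK2/3-/- and wt BMDM (adjusted p = 0.369), which with 75th percentile scaling was 1.1 (adjusted p = 0.0135).
Tfrc was lower in MK2/3-/- than in wt BMDM by a log2 difference that missed the threshold (-1.9, 95% interval -3.37 to -0.44, adjusted p = 0.055). MK2/3-/- LPS replicate 3, of replicate letter c, stood apart at 9.98 within the wt range, and without it the difference was -2.59 (adjusted p = 0.00646). That fit kept the wt LPS array of letter c (10.03). No wt LPS array carried letter b, whose MK2/3-/- LPS array stood at 6.69. The difference also passed without both MK2-/- replicate 3 arrays (-1.9, adjusted p = 0.0262) and under 75th percentile scaling (-1.79, adjusted p = 0.0347). The second Tfrc probe was lower with no overlap (log2 difference -2.07, adjusted p = 0.0193), and the third, which is near background, differed by -2.02 (adjusted p = 0.0681, limma probe by probe).
Hamp did not pass between genotypes after LPS, with differences of -0.55 for MK2-/- against wt (95% interval -2.03 to 0.92, adjusted p = 0.639), -0.29 for MK2/3-/- against wt (-1.76 to 1.19, adjusted p = 0.808) and 0.27 for MK2/3-/- against MK2-/- (-1.1 to 1.63, adjusted p = 0.848). The intervals leave room for differences in either direction. Ireb2 (0.05, -0.14 and -0.2), Fth1 (-0.11, -0.18 and -0.08) and the first Ftl1 probe (-0.1, -0.21 and -0.11) did not pass in the same 3 comparisons.

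**Figure D4:**
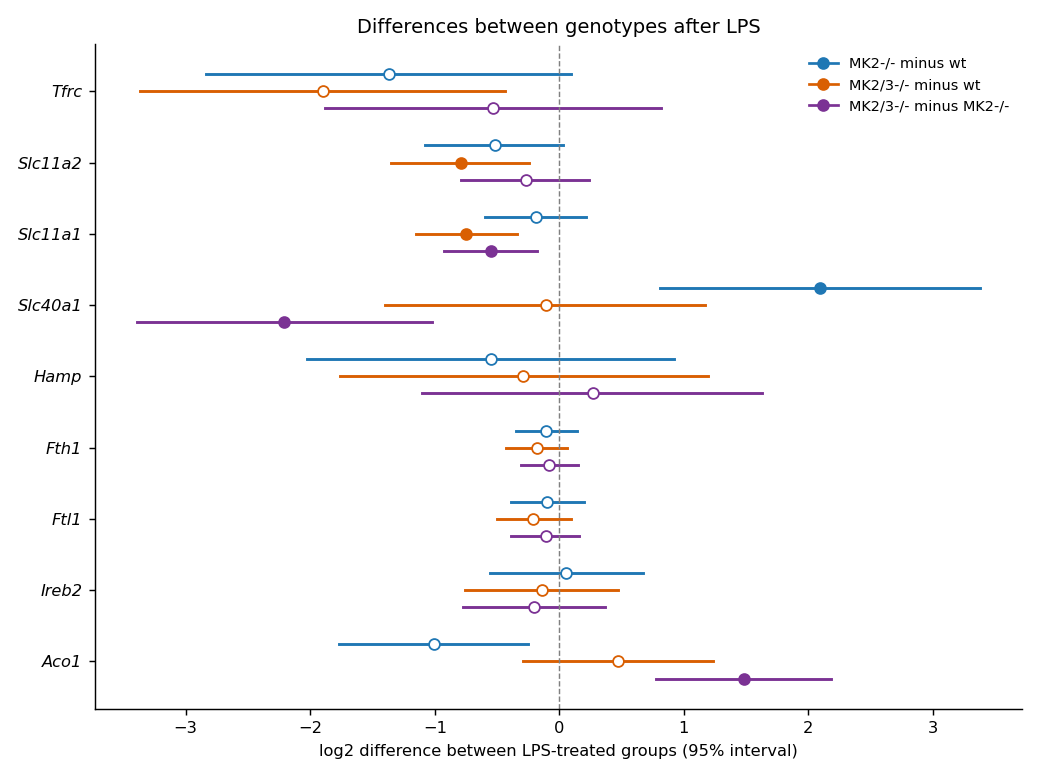
Log2 differences between LPS-treated genotypes for each iron gene with 95% intervals, filled where the adjusted p was below 0.05. Slc40a1 stands at 2.09 for MK2-/- minus wt and -2.21 for MK2/3-/- minus MK2-/-, and the intervals of Hamp cross 0 in all 3 comparisons.

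Whether LPS itself acted differently in the genotypes is asked by the difference of the LPS responses, in which an additive effect of the slide cancels. None of 9 members passed for MK2-/- minus wt, where 0% of all genes did, none for MK2/3-/- minus wt (0.679%) and none for MK2/3-/- minus MK2-/- (0.067%). At an unadjusted p below 0.05 limma gave 0, 2 and 3 members, and 1685, 2544 and 1926 of all genes.
The members with an unadjusted p below 0.05 were Slc11a1 (-0.76, adjusted p = 0.241) and Slc11a2 (-0.82, adjusted p = 0.412) for MK2/3-/- minus wt, and Slc11a2 (-1.06, adjusted p = 0.405), Slc40a1 (-2.07, adjusted p = 0.492) and Aco1 (1.14, adjusted p = 0.527) for MK2/3-/- minus MK2-/-. For Slc40a1 the LPS response of MK2-/- minus that of wt was 1.17 (adjusted p = 0.799), so that a weaker fall without MK2 was not shown by this test. For Hamp no size is given for the difference of the responses, since 10 of 11 medium arrays were not well above background.

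The wider pathway was followed in 4 lists, described by their counts and medians. The list of haem uptake, export and breakdown had 14 of 15 genes tested, and 2 rose and 8 fell in wt BMDM, 2 and 9 without MK2, and 1 and 10 without both kinases. Over all genes 18.6% rose and 23.5% fell in wt, 17.5% and 27.1% in MK2-/-, and 20.2% and 27.9% in MK2/3-/- BMDM. The median log2 difference of the list was -0.97, -1.11 and -1.73, beside -0.04, -0.01 and 0.01 over all genes. Slc48a1, which brings haem out of the phagolysosome, fell (log2 differences -3.39, -3.02 and -3.43, adjusted p = 1.22e-05, 1.21e-05 and 6.37e-06). Flvcr1, a haem exporter, fell (log2 differences -2.7, -2.7 and -2.99, adjusted p = 2.04e-06, 4.35e-07 and 3.18e-07).
Flvcr2, a relative of Flvcr1, rose by 5.15 in wt and 3.38 in MK2/3-/- BMDM on the log2 scale (adjusted p = 4.09e-05 and 0.00171), with only 1 medium array of each well above background, and was at least 21.6-fold higher in MK2-/- BMDM (adjusted p = 8.24e-07), where no medium array was. Hp, haptoglobin, which binds free haemoglobin, rose by 3.92 in wt and 3.26 in MK2-/- BMDM (adjusted p = 1.39e-05 and 3.15e-05) and differed by 1.22 in MK2/3-/- BMDM (adjusted p = 0.0785). Among LPS-treated cells Hp, which was picked for its large change in wt BMDM, was lowest without both kinases (MK2/3-/- minus wt -3.28, adjusted p = 0.00057, and MK2/3-/- minus MK2-/- -1.65, adjusted p = 0.0399). Of the 14 genes tested in the list 0 were higher and 3 lower for MK2/3-/- minus wt, beside 23.6% of all genes called. For MK2/3-/- minus MK2-/- the counts were 0 and 1 (13.5%). Leaving out single arrays gave 0 to 2 lower in that comparison, so the Hp call there was not kept in every fit.

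Among ferrireductases, ferroxidases and other metal carriers, 15 of 16 genes were tested, and 5 rose and 1 fell in wt, 5 and 3 in MK2-/-, and 6 and 2 in MK2/3-/- BMDM, with medians of 0.43, 0.35 and 0.32 (all genes -0.04, -0.01 and 0.01). These counts stand beside 18.6% higher and 23.5% lower, 17.5% and 27.1%, and 20.2% and 27.9% of all genes. Lcn2, lipocalin 2, which binds the iron carriers of bacteria, rose by 6.48, 5.98 and 4.72 (adjusted p = 5.85e-08, 2.9e-08 and 1.66e-06). Cp, the ferroxidase ceruloplasmin, rose by 5.16, 6.13 and 5.38 (adjusted p = 2.63e-07, 5.28e-09 and 8.36e-08). Slc39a14, a carrier of zinc and of iron not bound to transferrin, rose by 3.72, 4.76 and 2.55 (adjusted p = 1.6e-08, 1.4e-10 and 9.89e-07).
Steap4, a metalloreductase, was well above background on no medium array. After LPS it was at least 15.9-fold higher in wt (adjusted p = 8.17e-08), at least 3.66-fold higher in MK2-/- (adjusted p = 3.72e-06) and at least 1.87-fold higher in MK2/3-/- BMDM (adjusted p = 0.000705), with 2 of 4 MK2/3-/- LPS arrays well above background.
After LPS 3 of these 4 genes, which were picked for their large change in wt BMDM, were lower in MK2/3-/- than in wt BMDM. Of the 15 genes tested in the list 4 were lower and 1 was higher, where 23.6% of all genes differed. The differences were -3.54 for Steap4 (adjusted p = 0.000304), -1.52 for Slc39a14 (adjusted p = 0.00183) and -2.04 for Lcn2 (adjusted p = 0.0175). Steap4 was also lower without MK2 (MK2-/- minus wt -2.15, adjusted p = 0.02), and Slc39a14 was lower in MK2/3-/- than MK2-/- BMDM (-1.64, adjusted p = 0.000765). In each of these comparisons 1 gene of the list was higher and 2 were lower, where 11.6% and 13.5% of all genes differed. Leaving out single arrays gave 0 to 2 lower genes for MK2-/- minus wt, so the Steap4 call there was not kept in every fit. The difference of the LPS responses did not pass for Slc39a14 (MK2/3-/- minus MK2-/- -2.21, adjusted p = 0.054).

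Of the 15 genes of iron sensing, chaperones, ferritin turnover and iron-sulphur assembly, 3 rose and 6 fell in wt, 2 and 8 in MK2-/-, and 1 and 10 in MK2/3-/- BMDM, with medians of -0.38, -0.6 and -0.7 (-0.04, -0.01 and 0.01 over all genes). The shares of all genes were 18.6%, 17.5% and 20.2% higher and 23.5%, 27.1% and 27.9% lower. With scaling to the 75th percentile the counts were 5 and 3 in wt and 2 and 6 in MK2/3-/- BMDM. Of all 22378 genes that scaling called 10527 and 10605, with 60.5% and 54% of these calls higher. Ncoa4, the receptor that delivers ferritin to autophagy, fell (log2 differences -1.61, -1.65 and -2.15, adjusted p = 0.000103, 2.46e-05 and 2.48e-06).
Fbxl5, the iron-sensing adaptor that marks IRP2 for degradation, rose by 1.74 and 1.26 in wt and MK2-/- BMDM (adjusted p = 4.17e-05 and 0.000367) and differed by 0.67 in MK2/3-/- BMDM (adjusted p = 0.0508). Fbxl5, which was picked for its large change in wt BMDM, was lower in LPS-treated MK2/3-/- than wt BMDM (-1.11, adjusted p = 0.00694). Of the 15 genes in the list 0 were higher and 6 lower in that comparison, beside 23.6% of all genes called. Hif1a, a subunit of the hypoxia-inducible factor, rose by 2.08, 2.84 and 2.12 (adjusted p = 1.79e-06, 6.58e-09 and 7.88e-07).

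The list of hepcidin regulators held 21 genes, among them Hamp2, which is no regulator but the neighbouring gene named above. All 21 were tested, and 4 rose and 4 fell in wt, 5 and 5 in MK2-/-, and 4 and 5 in MK2/3-/- BMDM. The medians were 0.04, -0.02 and 0.11 against -0.04, -0.01 and 0.01 over all genes. Of all genes 18.6%, 17.5% and 20.2% were higher and 23.5%, 27.1% and 27.9% lower in the same order. Il6, the cytokine known to induce hepcidin in the liver, rose by 8.11, 12.15 and 12.06 (adjusted p = 1.35e-06, 1.49e-09 and 4.95e-09), and without wt medium replicate 4 the wt value was 9.37. Its mean in medium was 9.58 in wt, 5.68 in MK2-/- and 5.95 in MK2/3-/- BMDM, and after LPS it was 17.69, 17.83 and 18.01. Stat3, which carries the signal of interleukin 6 to the Hamp promoter, rose by 2.76, 2.35 and 2.93 (adjusted p = 2.08e-08, 2.93e-08 and 5.27e-09). Il6ra, the receptor chain, fell (log2 differences -2.56, -3.58 and -3.85, adjusted p = 4.35e-06, 1.26e-08 and 1.51e-08).
Smad6, an inhibitor of bone morphogenetic protein signalling, fell (log2 differences -3.48, -5.46 and -5.25, adjusted p = 8.73e-08, 7e-11 and 3.23e-10), and after LPS it was well above background on 2 of 4 MK2-/- and 2 of 4 MK2/3-/- arrays only. Its LPS level in wt BMDM exceeded those of both knockouts (MK2-/- minus wt -2.14, adjusted p = 0.00123, and MK2/3-/- minus wt -1.94, adjusted p = 0.000519). Il6ra was lowest in LPS-treated MK2/3-/- BMDM (-1.7 against wt, adjusted p = 0.00144, and -0.96 against MK2-/-, adjusted p = 0.0436). Smad6 and Il6ra were picked for their large change in wt BMDM. Of the list's 21 genes 0 were higher and 2 lower for MK2-/- minus wt, beside 11.6% of all genes called. For MK2/3-/- minus wt the counts were 2 and 4 (23.6%), and for MK2/3-/- minus MK2-/- 5 and 1 (13.5%). Leaving out single arrays gave 0 to 1 lower in the last comparison, so the Il6ra call there was not kept in every fit.

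**Figure D5:**
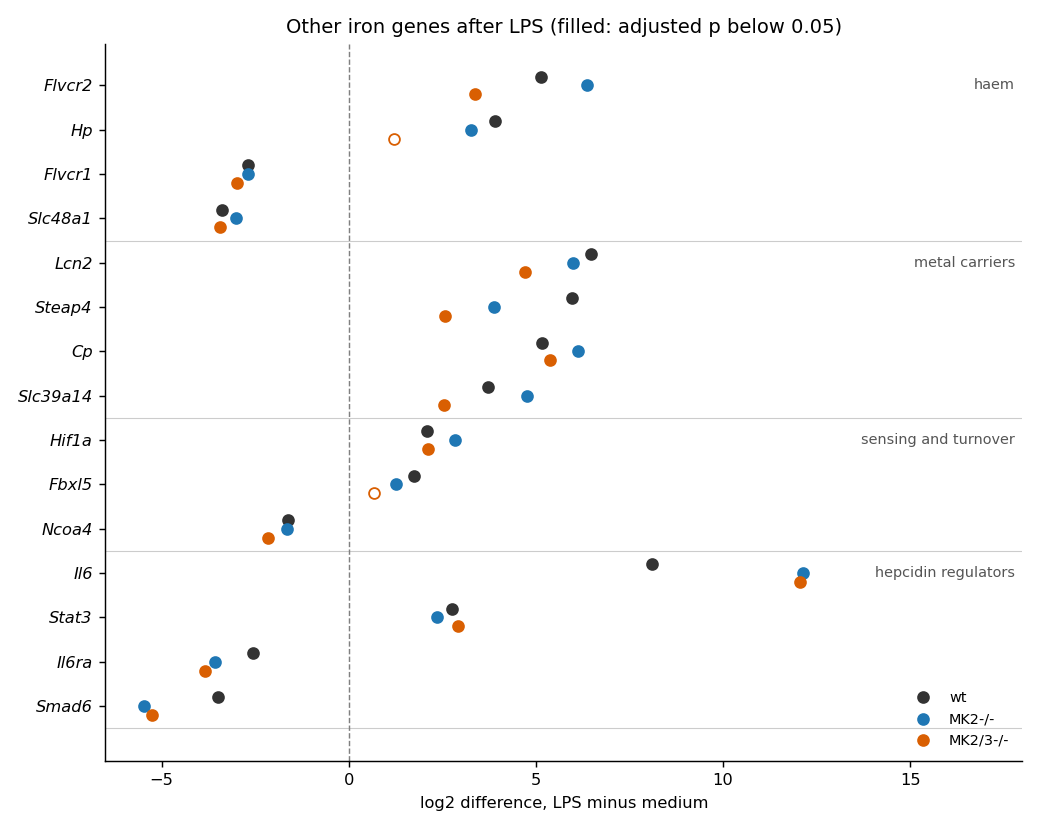
Log2 difference after LPS in each genotype for the genes named from the 4 iron lists, filled where the adjusted p was below 0.05. Il6 lies farthest to the right at 8.11, 12.15 and 12.06, Smad6 lies to the left with a dim LPS signal in both knockouts (2 of 4 arrays well above background in each), and Hp and Fbxl5 are open in MK2/3-/- BMDM.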

How the data were processed

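RNA of each culture was labelled with Cy3 and hybridised to a 1-colour Agilent SurePrint G3 mouse array. The deposited scanner files hold processed intensity values from Agilent Feature Extraction 11.0.1.1, corrected for background. A series table that the authors deposited gives log2 values, per their methods quantile normalised and centred on each probe's median. Its columns followed the scanner values used here with r of 0.992 to 0.999.

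Of 62976 spots, 3671 controls and 115 to 2927 marked spots per array were left out, and 61.0% to 82.7% of probes were well above background. The 2927 marked spots were on MK2-/- LPS replicate 3, and the next highest array had 261. That array also had the highest median processed signal (108) and the lowest r with the series table (0.992). No spot was saturated. The median processed signal was 32.7 to 108 per array, and the number of arrays limits the precision. Log2 processed signal was quantile normalised over 22 arrays, with repeated spots averaged by probe. The 28098 probes kept had an NCBI accession and passed the scanner software's background flag on 3 or more arrays, and the brightest of a gene's probes represented it (22378 genes). Names came from a RefSeq table of GRCm38.p6, which named 27509 of 29150 RefSeq probes.

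A mean for each of 6 groups was fitted with limma 3.58.1 (R 4.3.3, data.table, version 1.17.8) and eBayes. All adjusted p-values are two-sided, by Benjamini-Hochberg over all genes, or all probes where so stated, with a threshold of 0.05. Intervals are 95% intervals. For a lower bound, each array of the dim group got the probe's signal or the dimmest signal well above background on that array, whichever was higher, and their mean was set against that of the bright group. Steps were tested on simulated data.

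Alternatives were scaling to the 75th percentile, normexp background correction (offset 50, on median signals, since no mean signal column was present), no filter and a stricter filter, other probe choices, fits of only the groups compared, array weights, replicate blocks, the methods' t-test, the deposited log2 table and leaving out each array. A fit without both MK2-/- replicate 3 arrays was added after seeing the data.

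The members and lists were chosen with earlier results of these data known. All 9 members are named, the 4 genes of each list with the largest difference among those called in wt, any list gene called in a difference of LPS responses with wt (there was none), and the 5 genes most correlated with Hamp and with Slc40a1. An item that the rule for the lists names is not reported here. Hamp2, the array check genes and marker genes are named beside results they touch.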

Additional observations from a re-analysis of the deposited data

Results flagged for a closer look

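Dixon's test for a single array far from the others was run on 52 groups of 4 arrays over all member probes, and 5 were picked out, where chance gives about 1 in 20. Slc40a1 stood at 11.85 on wt medium replicate 2, above 10.69 on the next array. The brightest Tfrc probe stood at 10.03 on MK2-/- LPS replicate 3, above 8.09, and the third Tfrc probe at 4.97 on MK2-/- medium replicate 3, above 2.03, and both arrays are those with low Y-linked signal. Both also carry the replicate letter c, and the brightest Tfrc probe was highest on the letter c arrays of other groups too (10.03 in wt LPS, 9.98 in MK2/3-/- LPS). Hamp stood at 10.76 on MK2-/- LPS replicate 4, above 9. Ireb2 stood at 5.9 on MK2-/- medium replicate 2, below 7.3.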

How the results depend on the processing

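The number of members called after LPS moved by no more than 1.5 times under any alternative, but not always over the same members. With 75th percentile scaling wt BMDM lost Slc11a1 (-0.04, adjusted p = 0.892) and gained Fth1 and Ftl1, MK2-/- BMDM lost Slc11a1 and gained Fth1, and in MK2/3-/- BMDM Fth1 was gained and Ftl1 turned. Called members after LPS between MK2-/- and wt (1 by the fit reported) were 0 with only the groups compared, 3 with array weights and 0 by the methods' t-test after adjustment, and 0 to 1 when single arrays were left out. Between MK2/3-/- and wt (2) they were 4 with scaling to the 75th percentile, 0 with only the groups compared, 0 by the t-test and 1 to 3 leaving out arrays, and between MK2/3-/- and MK2-/- (3) 0, 1 by the t-test and 1 to 3. In medium, MK2-/- against wt (0) gave 1 with 75th percentile scaling, 1 with array weights and 0 to 1 leaving out arrays, and MK2/3-/- against MK2-/- (0) 0 to 1. Without both MK2-/- replicate 3 arrays Tfrc passed after LPS for MK2/3-/- minus wt, and Slc11a1 no longer passed for MK2/3-/- minus MK2-/-.

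Signs turned with 75th percentile scaling for Fth1 (0.78, 0.58 and 0.71) and Ftl1 (0.63, 0.46 and 0.54) after LPS, and for Tfrc in MK2/3-/- BMDM (0.14, and 0.08 with normexp). Other reversals were of values near 0. Tfrc after LPS in MK2-/- BMDM was -0.35 with array weights and -0.23 to 0.76 leaving out arrays, and in MK2/3-/- BMDM -0.71 to 0.38. Slc40a1 between MK2/3-/- and wt after LPS was 0.36 with 75th percentile scaling, 0.54 with array weights and -0.48 to 0.52 leaving out arrays. Leaving out arrays gave -0.01 to 0.13 for Ireb2 between MK2-/- and wt and -0.15 to 0.74 for Hamp between MK2/3-/- and MK2-/- after LPS. The Hamp response, fitted on medium signals mostly not well above background, differed between MK2-/- and wt by -0.51 with 75th percentile scaling, -0.36 with normexp and -0.24 to 0.86 leaving out arrays, between MK2/3-/- and wt -1.22, -0.22, -0.1 with a replicate block by number and -0.53 to 0.56, and between MK2/3-/- and MK2-/- 0.14 with normexp and -0.71 to 0.18. The causes were not tested.

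With scaling to the 75th percentile, 60.5%, 53.6% and 54% of the genes called after LPS were higher in wt, MK2-/- and MK2/3-/- BMDM, against 44.2%, 39.2% and 42% by quantile normalisation. Between genotypes after LPS these shares were 63.7%, 57.3% and 68.6% against 39%, 40.7% and 57.1%, and in medium 84%, 90.2% and 89.5% against 64.7%, 74.1% and 70.7%. Genes called rose from 2591 to 4751 (MK2-/- minus wt) and from 5281 to 8192 (MK2/3-/- minus wt) after LPS, and from 1974 to 4895 and from 452 to 4265 in medium, and 152 fell to 21 in the difference of LPS responses between MK2/3-/- and wt. Of the counts of iron list genes, 85 moved by over 1.5 times under other settings and 539 did not.

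Arrays of LPS and medium with the same replicate letter deviated together in 7 of 10 pairs (r -0.086 to 0.419 over the 10, and over 0.1 in those 7), against 5 of 30 pairs of other letters. Same-letter arrays were from mice of the same age in 10 of 10 pairs, and the labels do not state what the letter marks. A random replicate block by letter (correlation 0.144) or number (0.117) moved no member count by over 1.5 times, and brought Aco1 in wt (adjusted p = 0.0442 and 0.0402) and Ftl1 in MK2-/- BMDM (0.0451 and 0.0485) past the limma threshold after LPS. Signal over background limits Hamp in medium, where it was the member not well above background on all arrays, leaving 8 of 9.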

Other observations

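Over the 22 arrays the genes whose log2 signal followed Hamp most closely were Mtmr14 (Pearson r 0.98), Pml (0.978), Nt5c3 (0.977), Rsad2 (0.977) and Lhx2 (0.977). For Slc40a1 they were Id3 (0.945), Trim8 (0.941), Wdr91 (0.94), Pbx2 (0.939) and Mfsd5 (0.939). The arrays share the treatment, which separates both genes without overlap within each genotype, and the values describe the arrays only.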
